A study of Mus musculus with 2 samples.

Results

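Genes that respond to type I interferon were followed through the immune cells of the inflamed colon: Isg15, Usp18, Rsad2, Ifit1, Ifit2, Ifit3, Oasl2, Mx1, Ifi44 and Irf7. They were listed by name, as well-known members of this response, with no threshold on their values. Of the 10 listed genes, 9 were analysed, of 32228 genes in the count matrices, and Mx1 was not analysed here. Each was counted in 7 classes of cells, set by 1 marker gene per class, in a library labelled WT and a library labelled Ring1aKO. The question was whether these genes were lower in the Ring1aKO library in the way that genes induced by interferon-gamma were.

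Type I interferons are secreted proteins, mainly interferon-beta and the interferon-alpha family, which cells release after sensing viral or bacterial nucleic acids. They bind a receptor made of Ifnar1 and Ifnar2, and the kinases Jak1 and Tyk2 then pass the signal to a complex with Stat2 and Irf9 that binds the interferon-stimulated response element (ISRE) in front of responding genes. Interferon-gamma, made mainly by T and NK cells, uses another receptor and acts through the gamma-activated site (GAS), and many genes answer to both interferons.

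The cells were live CD45+ cells of the colonic lamina propria (LP), sorted from C57BL/6 mice aged 8 to 10 weeks per the labels, after colitis was induced in both groups by 2.5% dextran sulfate sodium (DSS) in the drinking water for 7 or 8 days. Ring1aKO mice carry a knockout of Ring1a, a subunit of a polycomb complex that represses genes, in the whole body, and their WT littermates were the controls. Cells of 5 mice were pooled per group into 1 library of 3′ single-cell RNA-seq. No untreated mice were analysed here, and with 1 library per group the genotype, the pool of mice and the library cannot be told apart.

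The libraries held 74414511 UMIs (unique molecular identifiers, each 1 captured transcript) for WT mice and 81862096 for Ring1aKO mice. After filters, 6005 and 7918 barcodes were kept as cells, with medians of 6354 and 5035 UMIs, and 11 barcodes occurred in both. The gates placed 4669 and 6331 of them in a class, 11000 of 13923 in all. Between 6 and 8 of the 7 to 10 markers of a class were highest in their own class in both libraries. Ring1, the targeted gene, had 828 UMIs in cells of the WT library and 816 in those of the other, and this does not show whether the transcript is disrupted upstream of the 3′ end, so the genotype was taken from the labels.

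A level is given as the UMIs of a gene in all cells of 1 class per 1000000 UMIs of these cells (CPM), so fewer responding cells and less RNA per cell cannot be told apart in such a level. Values in parentheses after a level are its exact 95% Poisson interval, and those after a log2 ratio, Ring1aKO over WT, are an exact 95% interval conditional on the counts. These intervals cover counting error only, not the spread between mice, and no test was made between single libraries. They also take each UMI as a separate draw, so they are too narrow where a few cells hold many of the UMIs.

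Many genes of this response are known to carry an ISRE in front of their start. RefSeq promoter entries on GRCm38.p6 were found for 8 members, all but Usp18 and Mx1. The core of the ISRE, searched on both strands as the letters GAAA, 2 bases of any kind and GAAA again, in the 250 bases before each start, occurred in 4 of the 8 genes. These 4 are shown because they carry the letters that the complex with Stat2 and Irf9 is known to bind. They are written 5′ to 3′ on the strand of the gene, end at the last base before the start, and have every match in capitals:
Isg15 (chr4:156200819-156200938, minus strand): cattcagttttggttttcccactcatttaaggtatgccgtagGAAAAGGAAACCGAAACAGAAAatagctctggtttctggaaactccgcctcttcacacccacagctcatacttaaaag
Rsad2 (chr12:26456453-26456572, minus strand): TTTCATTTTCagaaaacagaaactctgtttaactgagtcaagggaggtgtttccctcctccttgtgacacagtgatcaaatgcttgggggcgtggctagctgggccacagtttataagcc
Ifit3 (chr19:34583363-34583528, plus strand): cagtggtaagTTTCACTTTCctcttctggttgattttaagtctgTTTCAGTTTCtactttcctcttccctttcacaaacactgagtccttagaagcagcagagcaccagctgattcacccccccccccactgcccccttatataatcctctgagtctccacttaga
Ifit1 (chr19:34640769-34640888, plus strand): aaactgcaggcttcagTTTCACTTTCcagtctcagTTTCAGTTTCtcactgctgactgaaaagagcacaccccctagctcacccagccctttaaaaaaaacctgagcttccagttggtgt

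In Isg15 the capitals are 3 overlapping matches, and Ifit3 and Ifit1 each held 2 matches, all 4 on the opposite strand. Over all promoter windows of this length, 2.98% held the ISRE core (978 of 32851). The GAS, searched as TTCNNNGAA, occurred in 1 member, Ifit2, and in 7.02% of all windows. No stretch of Ifi44, Oasl2, Irf7 or Ifit2 in these windows had the letters of the ISRE core, which says nothing about binding elsewhere. A match is a description of the letters and was not tied to a value below.

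The genes lie on 7 chromosomes. In GENCODE vM21 on GRCm38, Ifit2 (chr19:34550694-34576419), Ifit3 (chr19:34583531-34588731) and Ifit1 (chr19:34640871-34650009) are neighbours on chromosome 19. The others are Isg15 (chr4:156199424-156200818), Rsad2 (chr12:26442746-26456452), Oasl2 (chr5:114896936-114912234), Usp18 (chr6:121245906-121270917), Irf7 (chr7:141262706-141266481) and Ifi44 (chr3:151730922-151749960). All 9 are protein-coding genes. The Ifit genes resemble each other in sequence, and how reads shared between such genes were counted was not tested.

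Summed over the 9 genes, the response was lower in the Ring1aKO library in 6 of the 7 classes and highest in neutrophils and myeloid cells of the WT library. In the neutrophil class, set by S100a8, the sum was 1337 CPM (1263 to 1414) in WT mice and 169 (145 to 195) in Ring1aKO mice, which is 7.92-fold lower. In the myeloid class, set by Lyz2 and holding monocytes and macrophages, it was 741 CPM (722 to 760) and 239 (219 to 260), 3.10-fold lower. The dendritic class, set by Flt3, had 222 CPM (209 to 237) and 91.8 (82.6 to 102), 2.42-fold lower. These 3 classes of the innate arm had the highest sums of the WT library, in this order from neutrophil to dendritic cells, with intervals that did not overlap.

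The 4 lymphocyte classes had the lowest sums of the WT library, which did not hold in the Ring1aKO library. The B class, set by Cd79a, had 66.9 CPM (60.3 to 74.0) and 25.05 (22.7 to 27.6), 2.67-fold lower in Ring1aKO mice. The plasma class, set by Jchain, had 49.5 CPM (46.2 to 53.0) and 30.5 (27.9 to 33.3), 1.62-fold lower. This plasma difference, a log2 ratio of -0.70, was within 1.5-fold without immunoglobulin genes in the denominator (-0.38), when scaled by the median of all genes (-0.32) and without Isg15 (-0.38), and it was -1.86 with loose, overlapping gates. The T class, set by Cd3e, had 158 CPM (150 to 165) and 94.5 (88.9 to 100), 1.67-fold lower. Only the NK class, set by Ncr1, went the other way, with 131 CPM (107 to 158) and 222 (185 to 263). The WT intervals of T and NK cells overlapped, and so did the Ring1aKO intervals of T and dendritic cells and those of NK cells with both myeloid and neutrophil cells.

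**Figure D1:**
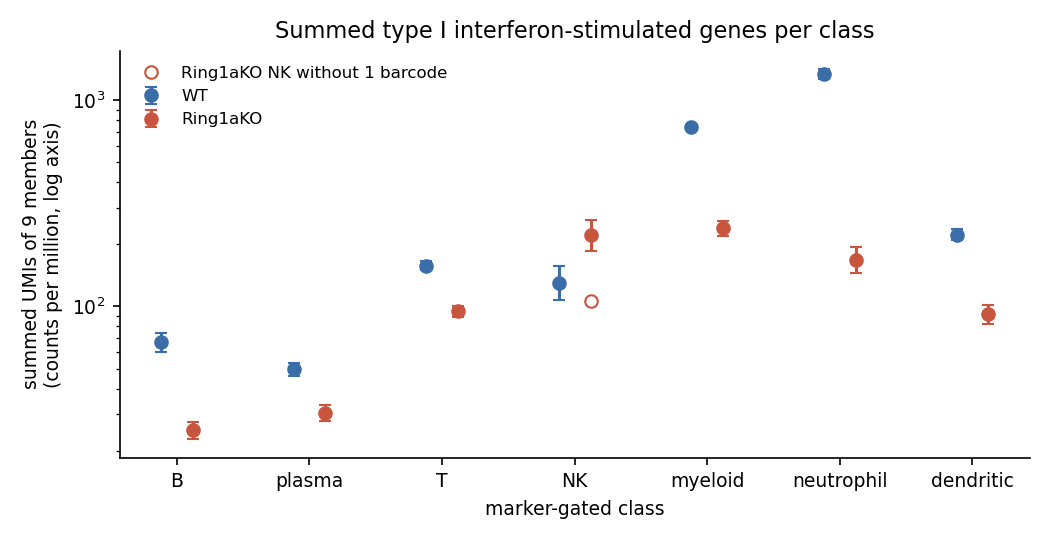
UMIs of 9 type I interferon-stimulated genes summed per marker-gated class, in CPM on a log axis, for the WT (blue) and Ring1aKO (red) libraries with exact 95% Poisson intervals; the open circle is the Ring1aKO NK class without 1 barcode. The WT neutrophil class stands at 1337 CPM and the Ring1aKO neutrophil class at 169 CPM, and the NK class is the only one with its filled red point above its blue point.

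The NK sum rested on 1 barcode. It held 68 of the 129 member UMIs of the 83 NK cells in the Ring1aKO library, 50 of them Ifit1 and 16 Isg15, among its 6781 UMIs. Without the barcode richest in member UMIs on each side, the NK levels were 122 CPM (99.1 to 148) and 106 (81.1 to 136), at a log2 ratio of -0.20 (-0.68 to 0.27). The rise in NK cells was thus not present without that cell.

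A few cells held much of the signal in the other classes as well. The 5% of cells richest in member UMIs carried 27.8% of them in WT neutrophils and 70.6% in Ring1aKO B cells. Leaving out the single richest barcode of each class and library gave log2 ratios of -3.00 in neutrophils, -1.73 in myeloid cells, -1.27 in dendritic cells, -1.36 in B cells, -0.76 in plasma cells and -0.72 in T cells. These 6 classes stayed lower in Ring1aKO mice.

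The share of member UMIs moved between classes. In WT mice 53.6% of the 11209 member UMIs of gated cells were in the myeloid class, and in Ring1aKO mice 17.0% of 3188. The T class held 14.9% and 33.3%, and the neutrophil class 10.9% and 5.61%. The myeloid class itself went from 888 cells in WT mice to 330 in Ring1aKO mice, and neutrophils numbered 187 and 214. Kept cells that passed no gate had 408 CPM (392 to 424) and 168 (156 to 179), so the lower level was not limited to gated cells. Barcodes with fewer than 100 UMIs, which carry cell-free RNA, held members at 260 CPM in WT mice and 80.2 CPM in Ring1aKO mice. The sums of WT B, plasma, T, NK and dendritic cells lay below their library's cell-free level, and the part of cell-free RNA in those cells was not tested beyond the subtraction given among the alternatives.

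Markers of other cell types differed between the libraries within these classes, in both directions. In the T class, 8 of 10 myeloid markers were at least 1.5-fold lower in Ring1aKO mice and their summed level was 525 and 323 CPM. In the plasma class 4 of 10 myeloid markers were lower, with sums of 3012 and 2114 CPM, most of it Ly6c2, which plasma cells also express. In the B, NK and dendritic classes 4, 3 and 3 of the 10 were lower, with sums of 249 and 198, 537 and 344, and 2942 and 2430 CPM. In each of the B, plasma, NK and dendritic classes 1 of the 10 was higher, and in T cells 0 were. These marker counts had no UMI limit. Of all genes with at least 50 UMIs, 31.4% were lower in plasma, 25.7% in neutrophil and 11.2% to 17.9% in B, T, NK and dendritic cells. Among neutrophils, 6 of 10 were lower while the sum was 10283 and 12461 CPM. None of the 10 myeloid markers was at 0 in both libraries in any class. The part of cells or RNA of other types in the member levels was not tested.

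Counted gene by gene, 36 of 63 pairs of a member and a class had at least 50 UMIs over both libraries, and 28 of these were at least 1.5-fold lower in Ring1aKO mice. Only 2 were at least 1.5-fold higher, both in NK cells, and 6 were neither. In 20 of the 36 pairs the library with fewer UMIs held under 50, so the filter itself lets in pairs that differ. Of the 28 lower pairs, 6 came within 1.5-fold under at least 1 alternative, namely Rsad2 in plasma, T and myeloid cells, Oasl2 and Ifit2 in T cells and Irf7 in B cells, and so did 1 of the 2 higher pairs, Irf7 in NK cells. Of the 27 pairs below 50 UMIs, 18 had the higher level in WT mice and 8 in Ring1aKO mice. All log2 ratios of single genes below had 1 UMI added to each sum.

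Among all genes with at least 50 UMIs in a class, the share at least 1.5-fold lower in Ring1aKO mice was the background for these counts. It was 25.7% in neutrophils, where 4 of 4 members with enough UMIs were lower, and 15.4% in myeloid cells, where 7 of 8 were. It was 17.9% in dendritic cells with 4 of 5 members lower, and 17.2% in B cells with 4 of 4, although the B call of Irf7 (-0.67) ended under 3 alternatives. T cells had 6 of 8 members lower beside 11.2% of all genes, and plasma cells 3 of 4 beside 31.4%. NK cells had 0 of 3 lower beside 15.4%, and 2 of 3 higher beside 5.59% of all genes. In the 6 classes other than NK no member was at least 1.5-fold higher, beside 2.86% of all genes in B, 1.87% in plasma, 4.06% in T, 7.99% in myeloid, 6.37% in neutrophil and 3.98% in dendritic cells. The plasma background was the highest, and there the median of all genes was itself at -0.38.

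Isg15, a ubiquitin-like protein that is attached to other proteins and also secreted, gave 43.4% of the member UMIs in WT mice and 33.0% in Ring1aKO mice. It was the only member besides Irf7 with at least 50 UMIs in every class. In neutrophils it stood at 716 CPM (663 to 773) in WT mice and 58.4 (44.8 to 74.9) in Ring1aKO mice, at a log2 ratio of -3.59 (-4.02 to -3.24). In myeloid cells it stood at 310 and 81.8 CPM, -1.92 (-2.15 to -1.71), and in dendritic cells at 84.0 and 22.9 CPM, -1.86 (-2.22 to -1.54). In all 3 the level intervals were apart. B cells had 17.5 and 3.59 CPM, at a log2 ratio of -2.28 (-2.78 to -1.81). T cells had 73.5 and 39.3 CPM (-0.90) and plasma cells 24.3 and 11.1 CPM (-1.12). In NK cells the levels were 50.4 CPM (36.3 to 68.1) and 51.6 (34.8 to 73.6), at a log2 ratio of 0.05 (-0.69 to 0.74), and 16 of the 30 UMIs of the Ring1aKO library came from 1 cell.

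The order of classes by Isg15 differed between the libraries. In WT mice neutrophils exceeded myeloid cells by intervals that did not overlap, and in Ring1aKO mice the myeloid class had the highest level, 81.8 CPM (70.4 to 94.5), with an interval that overlapped that of neutrophils. Dendritic cells and T cells were neighbours in WT mice at 84.0 (75.7 to 92.9) and 73.5 CPM (68.4 to 78.8), which overlapped.

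Usp18, the protease that removes Isg15 from proteins and also dampens signalling at Ifnar2, was sparse. Myeloid cells had 66 UMIs (8.15 CPM, 6.30 to 10.4) in WT mice and 5 (2.21 CPM, 0.72 to 5.16) in Ring1aKO mice, at a log2 ratio of -1.64 (-3.55 to -0.59). T cells had 3.86 and 3.74 CPM (-0.05, -0.70 to 0.61), and dendritic cells 7.31 and 5.79 CPM (-0.32, -1.17 to 0.47). In these last 2 classes no difference was detectable at this depth. Neutrophils had 5 UMIs in WT mice and 0 in Ring1aKO mice. This is 1.93-fold lower when 0 is taken as a limit of 3 counts and the WT count as exact. The ratio interval reached up to -0.09 there, and the level intervals overlapped. The remaining classes held 19 and 25 UMIs in B cells, 8 and 5 in plasma cells and 2 and 1 in NK cells.

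Rsad2 encodes viperin, an enzyme that makes a chain-terminating nucleotide and blocks the replication of many viruses. It stood at 276 CPM (243 to 312) in WT neutrophils and 29.2 (19.9 to 41.5) in those of Ring1aKO mice, at a log2 ratio of -3.20 (-3.83 to -2.70). In myeloid cells the levels were 156 CPM (148 to 165) and 83.6 (72.1 to 96.4), at a log2 ratio of -0.90 (-1.13 to -0.68). Of the 189 UMIs of Ring1aKO myeloid cells, 45 came from 1 cell. The levels were 22.8 and 10.3 CPM in dendritic cells (-1.13), 10.2 and 5.78 in T cells (-0.81), 6.39 and 4.03 in plasma cells (-0.66) and 6.20 and 2.43 in B cells (-1.35). Rsad2 was therefore at least 1.5-fold lower in all 6 classes in which it reached 50 UMIs, but not in every setting. In plasma cells, where 36 of the 106 WT UMIs were in 1 cell, the ratio was within 1.5-fold under 5 alternatives, at -0.26 as a mean over cells, -0.45 with the cell-free profile subtracted and -0.32 without the richest barcode. In T cells it was -0.56 without the deepest 5% of barcodes, and in myeloid cells -0.55 with the 10% mitochondrial limit. In NK cells it had 21 UMIs in WT mice, in 9 cells with 9 UMIs in 1 of them, and 0 in Ring1aKO mice. Against the limit of 3 counts, with the WT count taken as exact, it was 4.88-fold lower. The ratio interval reached up to -1.86. Rsad2 thus went in the opposite direction to Ifit1 in the same class.

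The Ifit genes encode proteins that bind foreign or uncapped RNA and hold back its translation. Ifit3 in myeloid cells had 111 UMIs (13.7 CPM, 11.3 to 16.5) in WT mice and 2 (0.88 CPM, 0.11 to 3.19) in Ring1aKO mice, at a log2 ratio of -3.38 (-7.02 to -2.07). Ifit2 in the same cells had 229 UMIs (28.3 CPM, 24.7 to 32.2) and 12 (5.31 CPM, 2.74 to 9.27), at a log2 ratio of -2.30 (-3.39 to -1.58). Ifit1 differed from both there, with 185 UMIs (22.8 CPM, 19.7 to 26.4) and 44 (19.5 CPM, 14.1 to 26.1), at a log2 ratio of -0.21 (-0.74 to 0.25) and overlapping levels. The intervals of the Ifit1 and Ifit3 ratios did not overlap, nor did those of Ifit1 and Ifit2. In Ring1aKO myeloid cells these UMIs came from 15 cells for Ifit1, 6 for Ifit2 and 2 for Ifit3. The intervals do not cover such clustering of UMIs in few cells, so a difference between these genes was not tested. The share of myeloid cells with a UMI was lower in Ring1aKO mice for all of them. It was 8.78% and 4.55% for Ifit1, 9.23% and 1.82% for Ifit2 and 5.63% and 0.606% for Ifit3.

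In T cells all 3 Ifit genes were lower by similar amounts. Ifit1 had 13.3 and 6.49 CPM (-1.02), Ifit2 5.94 and 3.11 CPM (-0.91) and Ifit3 6.88 and 2.31 CPM (-1.54), and their ratio intervals overlapped. The Ifit2 ratio was -0.30 when mixed barcodes went to the first gate passed. In neutrophils Ifit1 had 24 and 2 UMIs, Ifit2 11 and 1 and Ifit3 17 and 3, with ratio intervals that lay below 0 for each. A single WT neutrophil held 8 of the Ifit1, 6 of the Ifit2 and 8 of the Ifit3 UMIs. All 11 WT UMIs of Ifit2 were in 2 cells. The intervals do not cover this clustering, and the 3 genes are not separate results there. Dendritic cells had 43 and 6 UMIs of Ifit2, 22 and 4 of Ifit3 and 21 and 22 of Ifit1, each under 50 over both libraries. All 6 Ring1aKO UMIs of Ifit2 were in 1 dendritic cell, and 7 of the 22 of Ifit1 were in 1 cell. The Ifit1 levels there were 4.65 CPM (2.88 to 7.11) and 5.53 (3.47 to 8.38).

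Ifit1 in NK cells had 2 UMIs in WT mice and 50 in Ring1aKO mice, and all 50 were in 1 of 83 cells. The levels were 2.40 CPM (0.29 to 8.66) and 85.9 (63.8 to 113), and the log2 ratio of 4.61 (3.24 to 8.25) describes that cell. In B cells Ifit1 had 6 and 19 UMIs and in plasma cells 28 and 10. Ifit2 and Ifit3 had 24 and 8, and 21 and 5 UMIs in B cells, and at most 7 UMIs in either library in plasma and NK cells.

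Oasl2, a relative of the 2′-5′-oligoadenylate synthetases that sense double-stranded RNA, was at least 1.5-fold lower in all 6 classes in which it reached 50 UMIs. Myeloid cells had 83.4 CPM (77.3 to 90.0) and 13.7 (9.31 to 19.5), at a log2 ratio of -2.56 (-3.18 to -2.09). Neutrophils had 188 CPM (161 to 218) and 50.9 (38.2 to 66.4), -1.87 (-2.35 to -1.44). The intervals of these 2 ratios overlapped, whereas Isg15 and Rsad2 lay further below 0 in neutrophils than in myeloid cells with intervals that did not overlap. The log2 ratio of Oasl2 was -1.50 in dendritic cells (26.2 and 9.06 CPM), -1.79 in B cells (9.91 and 2.86 CPM) and -1.41 in plasma cells (3.02 and 1.10 CPM). T cells had 4.99 and 3.20 CPM (-0.63, -1.29 to -0.0034), with level intervals that overlapped, and the ratio was within 1.5-fold under 4 alternatives, at -0.21 as a mean over cells. NK cells had 9 and 8 UMIs.

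Ifi44, an antiviral protein induced by interferon, reached 50 UMIs in no class. Myeloid cells held 22 UMIs of it in WT mice and 0 in Ring1aKO mice. Against the limit of 3 counts, with the WT count taken as exact, this was 2.05-fold lower. The ratio interval reached up to -0.61. Dendritic cells had 18 and 7 UMIs, T cells 8 and 1, B cells 5 and 1, plasma cells 1 and 4, NK cells 1 and 1, and neutrophils none in either library. Over the gated cells it had 55 and 14 UMIs.

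Irf7, the transcription factor that switches on the interferon-alpha genes and so amplifies the response, lay closer to 0 than Isg15, Rsad2 and Oasl2 in B, plasma, T and dendritic cells. Myeloid cells had 116 CPM (108 to 123) and 32.3 (25.3 to 40.6), at a log2 ratio of -1.82 (-2.21 to -1.50). Neutrophils had 94.1 CPM (75.2 to 116) and 24.5 (16.0 to 35.9), -1.90 (-2.63 to -1.29). Both pairs of levels were apart. Dendritic cells had 59.2 and 34.0 CPM (-0.80, -1.11 to -0.50). B cells had 113 UMIs (16.5 to 24.0 CPM) and 208 (11.0 to 14.5 CPM), with a log2 ratio of -0.67, which was -0.40 with loose gates, -0.48 when scaled by the median of all genes and -0.58 without the deepest 5% of barcodes. T cells had 38.2 and 30.5 CPM (-0.32, -0.53 to -0.11) and plasma cells 13.3 and 12.4 CPM (-0.10, -0.38 to 0.18), both within 1.5-fold. In NK cells Irf7 had 36.0 CPM (24.3 to 51.3) and 65.3 (46.2 to 89.6), at a log2 ratio of 0.85 (0.13 to 1.60), with overlapping level intervals, and 0.20 with loose gates. Those UMIs were spread over 25 of 121 and 25 of 83 NK cells, and at most 4 were in 1 cell.

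In all 6 classes where Isg15 was lower, its ratio lay further below 0 than that of Irf7, and the intervals of both ratios were apart in B, plasma, T, neutrophil and dendritic cells but not in myeloid cells.

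**Figure D2:**
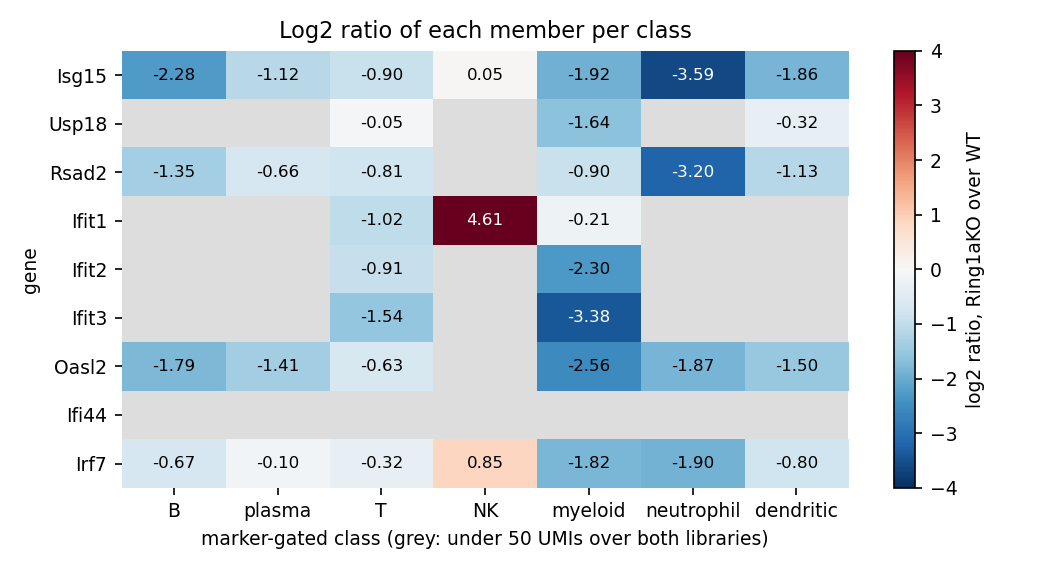
Log2 ratio (Ring1aKO over WT) of each of 9 members, in rows, in each of 7 marker-gated classes, in columns, with blue for lower and red for higher in Ring1aKO mice; grey cells had under 50 UMIs over both libraries. Isg15 in neutrophils is at -3.59, Ifit3 in myeloid cells at -3.38, and the NK column holds the only values above 0, of which Ifit1 (4.61) came from 1 cell and lies beyond the colour scale.

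At equal depth the share of cells with a member followed the levels. Each cell was thinned at random to 1000 UMIs, which left out no cell. In neutrophils 55.1% of WT cells (47.7 to 62.4, exact Clopper-Pearson) and 14.5% of Ring1aKO cells (10.1 to 19.9) then had at least 1 member UMI. In myeloid cells the shares were 36.4% (33.2 to 39.6) and 14.2% (10.7 to 18.5), and in dendritic cells 16.3% (12.2 to 21.1) and 7.23% (4.34 to 11.2). All 3 pairs of intervals were apart. These intervals take each cell of 1 library as a separate draw. Cells are not replicates of a group, so the intervals do not cover the spread between mice. T cells had 13.2% and 8.83%, B cells 5.61% and 2.05%, plasma cells 5.51% and 3.79% and NK cells 9.92% and 9.64%, and the intervals of the last 2 classes overlapped. NK cells thus had close to equal shares although their sums differed.

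Before thinning, 81.3% and 34.6% of neutrophils and 78.7% and 44.5% of myeloid cells had a member UMI, at medians of 4449 and 4962 UMIs per neutrophil and 9596 and 7148 UMIs per myeloid cell. No class is known to lack these genes, so no share from such a class can be given as background, and the cell-free levels above stand in its place. Cells with at least 3 different members after thinning made up 0.900% of gated WT cells (42 of 4669, 0.649 to 1.21) and 0.0948% of gated Ring1aKO cells (6 of 6331, 0.0348 to 0.206). Of the 42 WT cells, 23 were myeloid and 11 were neutrophils. B cells had 0 in either library, and they numbered 1105 in WT and 3318 in Ring1aKO mice. The pooled share therefore also carries the difference in class make-up. Within myeloid cells the shares were 2.59% (1.65 to 3.86) and 0.303% (0.0077 to 1.68), with overlapping intervals. Within neutrophils they were 5.88% (2.97 to 10.3) and 0.467% (0.0118 to 2.58).

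**Figure D3:**
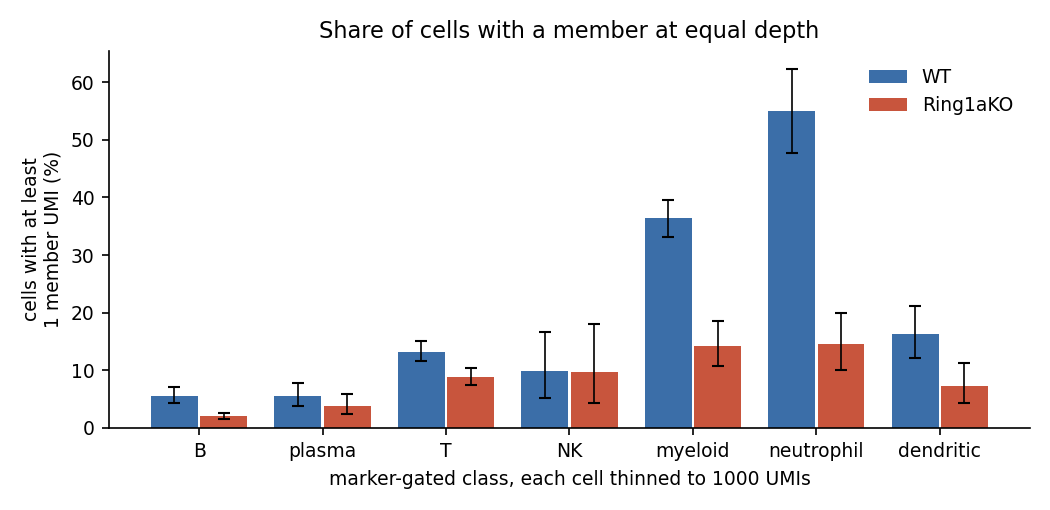
Percent of cells with at least 1 UMI of any of 9 members per marker-gated class after each cell was thinned to 1000 UMIs, for WT (blue) and Ring1aKO (red), with exact 95% Clopper-Pearson intervals. WT neutrophils reach 55.1% and Ring1aKO neutrophils 14.5%, and the NK bars are at 9.92% and 9.64%.

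The myeloid class differed in make-up between the libraries. Ly6c2, a marker of inflammatory monocytes, stood at 1141 CPM in WT and 195 CPM in Ring1aKO myeloid cells, and C1qa, a complement gene of resident macrophages, at 342 and 1039 CPM. Of the 10 myeloid markers 2 were at least 1.5-fold lower and 3 higher, with sums of 17040 and 17403 CPM. The members were therefore also read within cells split by these genes. A cell counted as with Ly6c2 from a single UMI and as with C1qa from 2 UMIs. Cells without C1qa could thus hold a single UMI of it, and these limits were not scaled to the depth of a cell. Cells with Ly6c2 and without C1qa numbered 638 in WT mice (71.8% of the class) and 97 in Ring1aKO mice (29.4%), and their member sum was 757 CPM (735 to 779) and 178 (150 to 209), at a log2 ratio of -2.09 (-2.34 to -1.85). Cells with C1qa and without Ly6c2 numbered 100 and 120, with 616 CPM (555 to 682) and 357 (314 to 405), at a log2 ratio of -0.79 (-1.03 to -0.55). The lower level was thus present on both sides of the split, and the intervals of the 2 ratios did not overlap.

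Single members differed between these cells. In the Ly6c2 cells Isg15 was at 309 and 66.9 CPM and Rsad2 at 154 and 49.9 CPM. In the C1qa cells Isg15 was at 271 and 111 CPM, while Rsad2 was at 176 and 157 CPM and Ifit1 at 23.3 and 30.6 CPM. The Ring1aKO C1qa cells included the 1 cell with 45 Rsad2 UMIs, and their Rsad2 level without it was not computed. Ifit1 had under 50 UMIs over both libraries in the C1qa cells. Cells with both markers numbered 78 and 19 and had sums of 805 and 556 CPM (-0.53, -0.87 to -0.21), and cells with neither numbered 72 and 94 and had 552 and 103 CPM (-2.42, -2.86 to -2.01).

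Neutrophils and dendritic cells were read in the same way. The neutrophil gate admits cells that also carry Lyz2, and 77 WT and 118 Ring1aKO cells had a UMI of the monocyte genes Csf1r or Ly6c2, a split chosen after the values were seen. Without them the sum was 1253 CPM (1152 to 1360) in 110 WT cells and 108 (77.7 to 147) in 96 Ring1aKO cells, at a log2 ratio of -3.53 (-4.03 to -3.08). With them it was 1419 and 202 CPM (-2.81, -3.09 to -2.54). Both kinds of cell were lower in Ring1aKO mice. The neutrophil marker Retnlg, a granule gene, was at 6135 CPM in WT and 20030 CPM in Ring1aKO neutrophils, and 2 of 8 neutrophil markers were at least 1.5-fold higher. The part of neutrophil state in the member levels was not tested.

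Plasmacytoid dendritic cells, known as the strongest producers of interferon-alpha, were read as the dendritic class cells with at least 2 UMIs of Siglech. They numbered 32 in WT and 20 in Ring1aKO mice, and their member sum was 141 CPM (105 to 185) and 91.8 (57.5 to 139), at a log2 ratio of -0.62 (-1.41 to 0.13). Most of it was Irf7, at 76.0 and 75.1 CPM, which these cells express without stimulation. The 251 and 229 other dendritic cells had 230 and 91.8 CPM, -1.32 (-1.51 to -1.14).

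A longer list of 39 other genes of the type I response was counted beside the members. In myeloid cells 34 of 37 with at least 50 UMIs were at least 1.5-fold lower in Ring1aKO mice and in neutrophils 16 of 17. B cells had 21 of 33, dendritic cells 21 of 32, T cells 19 of 35 and plasma cells 18 of 30. NK cells had 3 of 12. The limit of 50 UMIs was over both libraries here too, so a gene low in 1 library could pass through the other. Of all genes, 15.4% were lower in myeloid cells, 25.7% in neutrophils, 17.2% in B, 17.9% in dendritic, 11.2% in T, 31.4% in plasma and 15.4% in NK cells. The median log2 ratio was -1.38 in myeloid cells, -1.55 in neutrophils, -0.96 in B cells, -0.88 in dendritic cells, -0.84 in plasma cells, -0.62 in T cells and -0.01 in NK cells, beside -0.11, -0.21, -0.19, -0.17, -0.38, -0.06 and -0.10 for all genes. The longer list lay on the same side of the median of all genes as the members in the 6 classes other than NK, and closer to 0 than the members in all of these.

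The genes of this list with most UMIs showed which of its parts moved. Ifi27l2a, a small interferon-induced mitochondrial protein, was at 1958 and 638 CPM in myeloid cells (-1.62), 1048 and 205 CPM in neutrophils (-2.35) and 429 and 221 CPM in B cells (-0.96). Ly6e, a surface protein that restricts some viruses, was within 1.5-fold in B (0.14), plasma (-0.09), T (0.26), NK (0.05), dendritic (-0.19) and neutrophil cells (-0.56), and only in myeloid cells did it pass this limit, with 1627 and 882 CPM (-0.88). Bst2, the tether that holds budding virus at the cell surface, was at 221 and 116 CPM in myeloid cells (-0.93) and within 1.5-fold in the other 5 classes with enough UMIs. Summed over the 39 genes, B, plasma, T, NK and dendritic cells were within 1.5-fold (log2 ratios of -0.30, -0.46, -0.29, -0.04 and -0.55), while the medians over the same list lay below these sums in B, plasma, T and dendritic cells.

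Among the others named by UMI count, Sp100, a nuclear body protein, was at 232 and 82.0 CPM in neutrophils (-1.49), 138 and 61.9 CPM in myeloid cells (-1.15) and 268 and 225 CPM in B cells (-0.25). Epsti1 was at 169 and 159 CPM in T cells (-0.09) and 147 and 143 CPM in NK cells (-0.04). Ifi204, a DNA sensor of the HIN-200 family, was at 330 and 138 CPM in myeloid cells (-1.25) and 139 and 7.54 CPM in neutrophils (-4.04). Isg20, an RNA exonuclease, was at 249 and 133 CPM in neutrophils (-0.90).

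The interferon-gamma genes were lower as well, and in most classes by more. Their list held 21 genes, among them the guanylate-binding proteins, the immunity-related GTPases, Irf1, Cxcl9, Ciita and Socs1. In myeloid cells 21 of 21 were at least 1.5-fold lower in Ring1aKO mice, beside 15.4% of all genes. The UMI limit was over both libraries here too, so genes low in Ring1aKO mice could pass through their WT UMIs. Cxcl9, for example, had 4127 UMIs in WT and 8 in Ring1aKO myeloid cells, and Irgm2 had 135 and 6. The medians that follow, of list and members, share this limit. The median log2 ratio of the list was -2.64 beside -1.87 for the members. With the 3 genes that had no UMI in Ring1aKO myeloid cells set to their limits of 3 counts, that median was -2.47. The medians of list and members were -3.10 and -2.55 in neutrophils, -1.84 and -1.13 in dendritic cells, -1.95 and -1.57 in B cells and -1.43 and -0.89 in plasma cells. In T cells the order was turned, with -0.64 for the list and -0.85 for the members. NK cells had -0.79 and 0.85, on 10 and 3 genes.

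Taken as the list minus the members, the difference of medians ran from -1.64 in NK cells to 0.21 in T cells, with a median over the 7 classes of -0.55. Where the gates were loosened to 1 UMI of the marker and allowed to overlap, this median was 0.16, so its direction depended on how the classes were set. Summed levels gave another picture in neutrophils and B cells. The list fell by 2.96 and 1.37 on the log2 scale there and the members by 2.99 and 1.42, while in myeloid cells the list fell by 3.11 and the members by 1.63. The counts at least 1.5-fold lower were 18 of 19 list genes in B cells, 16 of 18 in plasma and 12 of 21 in T cells. They were 6 of 10 in NK, 8 of 9 in neutrophil and 15 of 16 in dendritic cells. The UMI limit over both libraries applied to these counts as well. Of all genes, 17.2% were lower in B, 31.4% in plasma, 11.2% in T, 15.4% in NK, 25.7% in neutrophil and 17.9% in dendritic cells. In T cells 2 list genes were higher, beside 4.06% of all genes.

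**Figure D4:**
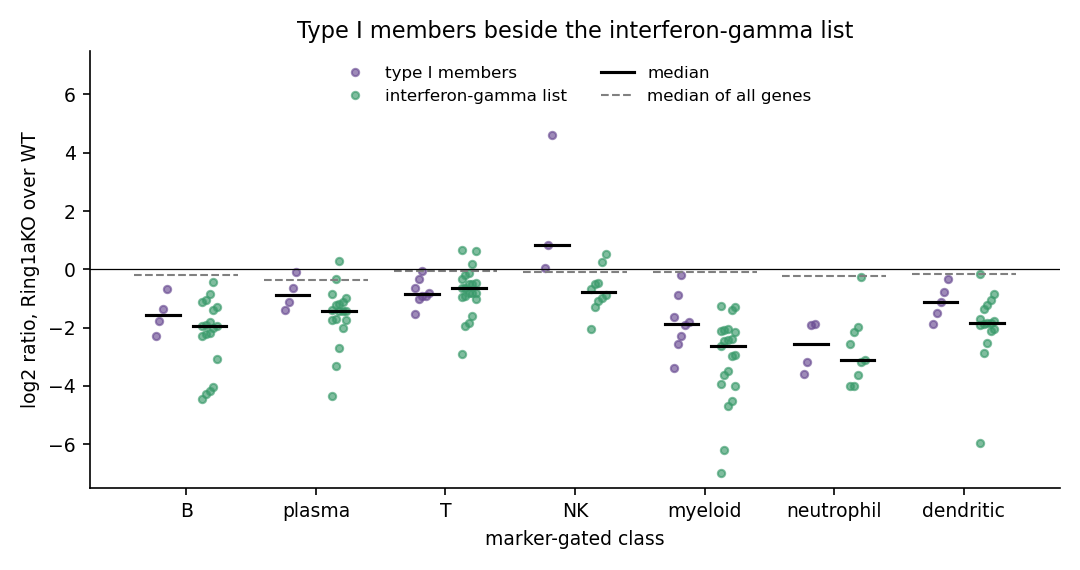
Log2 ratios (Ring1aKO over WT) of single genes with at least 50 UMIs in 7 marker-gated classes, for the type I members (purple) and the interferon-gamma list (green), with the median of each as a black bar and the median of all genes as a dashed grey line. The green bar lies below the purple bar in every class but T, and in myeloid cells the bars are at -2.64 and -1.87.

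The single genes of the list differ in size of change by class. Gbp2, a GTPase that attacks the membranes around intracellular microbes, was at 952 and 36.7 CPM in myeloid cells (-4.68) and 75.0 and 39.7 CPM in T cells (-0.92). Cxcl9, a chemokine induced mainly by interferon-gamma, was at 509 and 3.54 CPM in myeloid cells (-7.00) and 147 and 41.3 CPM in dendritic cells (-1.83). Irf1, a transcription factor of both responses, was at 384 and 91.5 CPM in myeloid cells (-2.06), 139 and 64.3 in B cells (-1.12) and 161 and 114 in T cells (-0.50). Among the 21 genes, Ciita, the switch of MHC class II genes, and Socs1, an inhibitor of the Jak kinases, were the 2 that were higher in T cells, with 2.36 and 3.82 CPM (0.68) and 97.2 and 151 CPM (0.63). Ciita was at 210 and 155 CPM in B cells (-0.45), which express it without interferon.

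The ISRE core is not particular to either list. It occurred in 11 of the 14 interferon-gamma genes with a RefSeq window (68.8% of 16 windows) and in 38.9% of the 36 windows of the other type I list. The GAS occurred in 43.8% of the windows of the interferon-gamma list and in 11.1% of those of the members.

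The ligands of the response were at the edge of detection. Of 21 interferon genes counted, 15 had no UMI in any kept cell. Ifnb1, which encodes interferon-beta, had 85 UMIs in 40 WT cells and 80 in 29 Ring1aKO cells. In the myeloid class it had 59 UMIs (7.28 CPM) in WT mice and 19 (8.40 CPM) in Ring1aKO mice, at a log2 ratio of 0.26 (-0.62 to 0.97). Of the 14 interferon-alpha genes only Ifnab had a UMI, 2 in WT and 1 in Ring1aKO mice. Ifng, which encodes interferon-gamma, was at 206 and 147 CPM in T cells (-0.48) and 904 and 275 CPM in NK cells (-1.71). The NK class held 121 and 83 cells, and 2 of its 8 markers were at least 1.5-fold lower in Ring1aKO mice and 0 higher. These were Prf1 (343 and 179 CPM) and Xcl1 (1792 and 995 CPM). The part of the make-up of the NK class in its Ifng level was not tested.

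The genes of the receptor for type I interferon were within 1.5-fold in most classes. Ifnar1 was at least 1.5-fold lower only in plasma cells, at 49.6 and 30.1 CPM (-0.72), and was below 0 on the log2 scale in all 7 classes, from -0.29 in T cells to -0.72. The median of all genes was also below 0 in all 7 classes, from -0.06 in T cells to -0.38 in plasma cells. Ifnar1 lay below that median in each class, for example at -0.38 beside -0.11 in myeloid cells. Its level intervals were apart in B, plasma, T, myeloid and dendritic cells. In plasma cells 31.4% of all genes were at least 1.5-fold lower. Ifnar2 was within 1.5-fold in every class, at 267 and 239 CPM in myeloid cells (-0.16) and 140 and 142 CPM in neutrophils (0.02). Jak1 was within 1.5-fold in every class and Tyk2 passed it only in myeloid cells, at 25.8 and 13.3 CPM (-0.92). Jak2, the kinase of the interferon-gamma receptor, was at least 1.5-fold lower in 5 classes, among them T cells with 246 and 148 CPM (-0.73). Of the chains of that receptor, Ifngr1 was within 1.5-fold in every class. Ifngr2 was lower in plasma cells, at 15.7 and 9.47 CPM (-0.73), higher in neutrophils, at 41.6 and 67.9 CPM (0.69) with overlapping level intervals, and within 1.5-fold in the other 4 classes with enough UMIs.

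The transcription factors downstream, which are themselves induced by interferon, moved with the members. Stat2 and Irf9 also belong to the list of 39 other type I genes, so their values are not separate from its counts. Stat2 was at least 1.5-fold lower in the 6 classes with enough UMIs, at 53.1 and 13.7 CPM in myeloid cells (-1.91) and 51.4 and 9.43 in neutrophils (-2.34). Irf9 was lower in the same 6, from -0.66 in dendritic cells to -1.22 in myeloid cells.

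**Figure D5:**
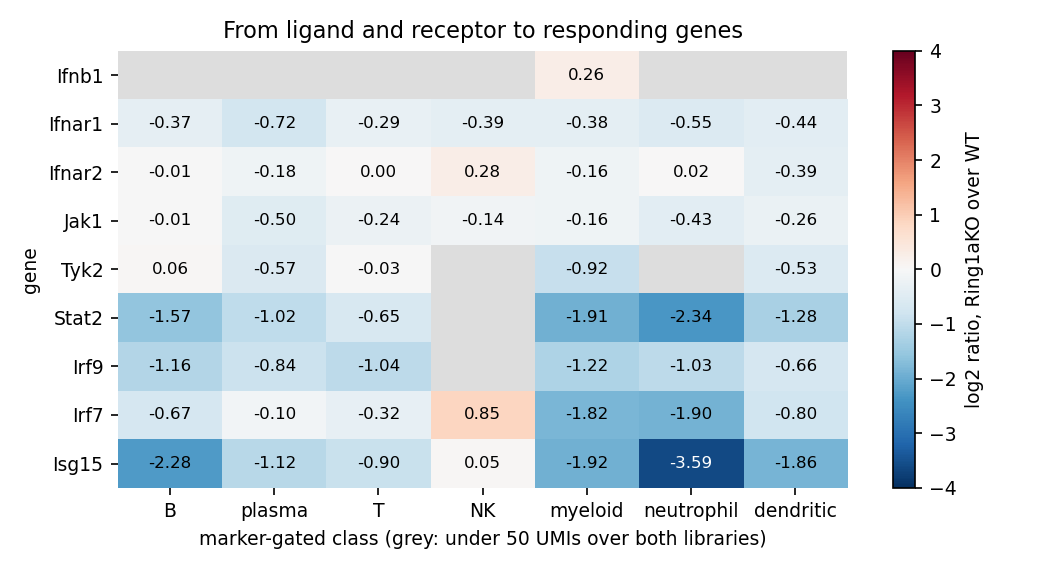
Log2 ratio (Ring1aKO over WT) of Ifnb1, the type I receptor genes, their kinases, the transcription factors and the members Irf7 and Isg15, in rows, in 7 marker-gated classes, in columns, with blue for lower and red for higher in Ring1aKO mice and grey for under 50 UMIs. Ifnar2 and Jak1 stay between -0.50 and 0.28, while Stat2 runs from -0.65 in T cells to -2.34 in neutrophils.

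Genes that sense nucleic acids and start the production of type I interferon were mixed. Ddx58 and Ifih1 among them were also counted in the list of 39 other type I genes. The share of all genes at least 1.5-fold lower was 31.4% in plasma, 25.7% in neutrophil and 11.2% to 17.9% in the other classes. Ddx58, which encodes the RNA sensor RIG-I and is induced by interferon, was at least 1.5-fold lower in the 6 classes other than NK, at 33.3 and 9.73 CPM in myeloid cells (-1.72). Ifih1, the RNA sensor MDA5, was lower in B (-1.23), plasma (-1.12) and T cells (-1.63) and within 1.5-fold in myeloid (116 and 86.2 CPM, -0.42) and dendritic cells (-0.33). Sting1, the adaptor of the DNA-sensing pathway, was lower in B (-0.73), plasma (-1.47) and myeloid cells (-0.79). Tlr7, an endosomal RNA receptor, was at 29.1 and 28.7 CPM in myeloid cells (-0.00) and lower in B (-0.71) and dendritic cells (-0.93). Irf3, the factor that switches on Ifnb1 and is not itself induced, was within 1.5-fold in all 5 classes with enough UMIs. Tlr3 reached 50 UMIs only in dendritic cells, where it was lower (-1.14). Cgas was lower in T (-0.67) and myeloid cells (-0.89) but not in dendritic cells (-0.06). Tbk1 was lower in plasma (-0.61), myeloid (-0.63) and neutrophil cells (-0.67) and within 1.5-fold in the other classes. Mavs was within 1.5-fold in B (0.32) and T cells (-0.20), and Tlr9 reached 50 UMIs in no class.

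Across the 14 values of 7 classes and 2 libraries, the genes whose levels were most like the summed members were Tiparp (Pearson r of 0.919 on log2 CPM with 1 added), Ifrd1 (0.917), Skil (0.914), Rnf24 (0.912), Nod1 (0.908), Cers6 (0.905), Abr (0.895) and Sema4a (0.892), among 7787 genes compared. None of the 8 belongs to the lists used here. The 14 values share 2 libraries and 1 set of cells, so these are descriptions. Of the members, Isg15 had 0.976, Irf7 0.927, Oasl2 0.902, Ifit2 0.813, Ifit1 0.748 and Rsad2 0.744 with the sum that contains them.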

How the data were processed

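LP cells were sorted as live CD45+ cells and sequenced with 10x Genomics 3′ chemistry, 1 library of 5 pooled mice per group. The authors counted UMIs per gene and barcode with Cell Ranger and deposited raw counts of all barcodes, without normalization. The file headers name Cell Ranger 4, the submitters' notes Cell Ranger 6.0.2, Seurat and mm39, and the study's methods mm10 and an earlier version, so the build behind the counts is not settled. The study's methods give an age of 8 to 12 weeks. Gene positions are those of GENCODE vM21 on GRCm38 and were not used to count.

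Barcodes with at least 1000 UMIs, at least 500 genes and under 5% mitochondrial UMIs were kept, which left out 387 WT and 501 Ring1aKO barcodes for mitochondrial UMIs alone. Gates were at least 100 Jchain, 50 S100a8 or 20 Lyz2 UMIs per 10000, 2 Cd79a UMIs that also made up 3 per 10000, and 1 UMI of Cd3e, Ncr1 or Flt3. Cells with Cd79a and Jchain counted as plasma, Lyz2 and S100a8 as neutrophil, Lyz2 and Flt3 as dendritic, and Cd3e and Ncr1 as T cells. Other mixtures, 388 WT and 783 Ring1aKO barcodes, were left out as possible doublets, and no doublet caller was run. Cells with no gate numbered 948 and 804.

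Python 3.11.15, NumPy 2.4.6, SciPy 1.17.1, pandas 2.3.3 and matplotlib 3.10.9 were used. Ratios of single genes had 1 UMI added to each sum, and a gene was called at 1.5-fold where its UMIs in a class came to 50 or more over the 2 libraries. The ratio, its interval and the thinning were tested on simulated data. The simulated class sums were drawn as Poisson counts. That test therefore cannot show how the intervals hold where a few cells carry many of the UMIs, as they do here. The members and lists, and the alternatives listed for them, were chosen with earlier results of these data known. Named were all members in every class, the 3 genes with most UMIs per class of the other type I list and the interferon-gamma list, the ligands, receptors, transducers and sensors, and the 8 genes most alike; other genes were named after their values were seen. Reads of a gene and of an overlapping or closely similar gene could not be told apart. A gene of the interferon-gamma list is counted in the list's values and is not reported by name here.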

Additional observations from a re-analysis of the deposited data

Results flagged for a closer look

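The NK class was the only class in which the summed members were higher in Ring1aKO mice, at a log2 ratio of 0.76 (0.38 to 1.14), while the other 6 classes were lower, from -0.70 in plasma cells to -2.99 in neutrophils. With 1 library per group this difference between classes was not tested. Of the 129 member UMIs in NK cells of the Ring1aKO library, 68 were in 1 barcode, and without the richest barcode of each library the ratio was -0.20 (-0.68 to 0.27). Isg15 was at 0.05 in NK cells, Rsad2 went from 21 UMIs to 0, and Irf7, spread over 25 cells in each library, was at 0.85.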

How the results depend on the processing

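No paired analysis was possible because each group held 1 library, so that no replicate could be left out. Of 105 recomputed sums, differences and shares, 80 stayed within the interval set for the reported value. For sums and shares this was the counting interval. The difference between the lists has no counting interval of its own. It was given the median half-width of the ratio intervals of the class sums. Loose, overlapping gates gave sums of -1.86 in plasma, -0.93 in T, 0.11 in NK and -2.25 in neutrophil cells and a median difference between the interferon-gamma list and the members of 0.16. Giving mixed barcodes to the first gate passed gave -1.65 in B and -0.94 in plasma cells and a difference of -0.21. Plasma cells fell below 1.5-fold without immunoglobulin genes in the denominator (-0.38) and when scaled by the median of all genes (-0.32). The 10% mitochondrial limit gave -1.48 in myeloid cells, thinning to 1000 UMIs gave -1.53 in dendritic cells, and the GTPase genes alone gave a difference of -0.80. The shares that follow pool all gated cells, and the make-up of classes differed between the libraries. At least 3 members were found in 2.22% of WT and 0.275% of Ring1aKO cells at 2000 UMIs. At least 2 members were found in 3.53% and 0.505% at 1000 UMIs.

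Chosen after seeing the data were 3 alternatives. Without the barcode richest in members, the NK ratio reversed to -0.20. Without Isg15 the sums were -1.20 in B, -0.38 in plasma, -0.61 in T, -1.45 in myeloid, -2.49 in neutrophil and -1.01 in dendritic cells, and 1.08 in NK cells. Neutrophils without a Csf1r or Ly6c2 UMI had -3.53. Subtracting the cell-free profile left the 7 sums between -2.99 and 0.91, each within its interval. Of 368 recomputed ratios of single members, 338 stayed within their interval and none changed sign after a call. The sums of B, T, myeloid, neutrophil and dendritic cells were at least 1.5-fold lower in every setting run.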
